A study of Mus musculus with 6 samples.

Results

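The genes described here are those that carry a beta-adrenergic signal to cAMP: 7 transmembrane adenylyl cyclases (Adcy2, Adcy3, Adcy4, Adcy5, Adcy6, Adcy7 and Adcy9), the beta1-adrenergic receptor Adrb1, and Gnas, which encodes the stimulatory G protein alpha subunit Gs-alpha. They were taken by gene symbol, and all 9 are present among the 27179 genes listed in the raw count files. Their transcripts were measured by RNA-seq in quadriceps muscle of 3 control libraries (replicates B, C and D) and 3 miDrp1KO libraries (replicates A, E and F). The miDrp1KO mice carry floxed alleles of Dnm1l, the gene for the mitochondrial fission GTPase Drp1, together with HSA-MerCreMer, a Cre recombinase that tamoxifen switches on and that the human ACTA1 promoter restricts to skeletal muscle fibres. Blood vessels, nerve, fat, fibroblasts and immune cells in the quadriceps are not targets of this Cre. The controls, labelled Control f/f, carry floxed Dnm1l; the methods of the study describe its controls as flox/+ or flox/flox, and do not say whether any carried the Cre. The floxed line had been backcrossed to C57BL/6J. Both groups were given tamoxifen when 3 months old and were fed a normal chow diet, and the muscle was taken 3 weeks after the deletion. The study describes the comparison as 3 mice against 3.

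In muscle, noradrenaline from sympathetic nerves and adrenaline from the circulation bind beta-adrenergic receptors, which activate Gs-alpha. Gs-alpha bound to GTP stimulates adenylyl cyclase to make cAMP from ATP, and cAMP releases the catalytic subunits of protein kinase A (PKA), which phosphorylate metabolic enzymes, calcium-handling proteins and the transcription factor CREB. The cyclases differ in what else controls them: Adcy2, Adcy4 and Adcy7 are stimulated by G protein beta-gamma dimers, Adcy5 and Adcy6 are inhibited by calcium and by the inhibitory alpha subunits, Adcy3 is the cyclase of olfactory neurons and is also found in fat and vessel walls, and Adcy9 is the isoform least sensitive to forskolin. The study asks what acute loss of Drp1 does to muscle mass and names cAMP, PKA and the Erk1/2-Nur77 pathway among its interests.

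Adcy2 and Gnas transcripts were lower in every miDrp1KO library than in any control library, and so was Adcy9, while the remaining cyclases and Adrb1 overlapped between the groups. Adcy2 was at 0.554 of the control level (log2 fold change -0.85, SE 0.177), Gnas at 0.676 (log2 fold change -0.56, SE 0.204) and Adcy9 at 0.722 (log2 fold change -0.47, SE 0.216). None of the 8 members tested passed an adjusted p of 0.05 in edgeR, against 0.0121% of all 16483 genes tested (2 genes). At an unadjusted p under 0.05, 2 of the 8 were lower (Adcy2 and Gnas) and none was higher, against 10.9% of all genes tested in either direction. The 3 members whose groups did not overlap compare with 18% of all genes tested.

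The promoters of the 3 genes whose groups did not overlap are printed here so that their base composition and motifs can be read beside the values. Each runs from 250 bases before to 50 bases after an annotated start, 5′ to 3′ on the gene's own strand, from RefSeq on GRCm38.p6: Adcy2 at chr13:68999492-68999791 on the minus strand, Adcy9 at chr16:4420449-4420748 on the minus strand, and the most downstream of the 4 Gnas starts in the table, at chr2:174329756-174330055 on the plus strand. Capitals mark the CRE half-site (TGACG), the core of the element that CREB binds, and the GC box (GGGCGG), which Sp1-family factors bind, on either strand.
Adcy2: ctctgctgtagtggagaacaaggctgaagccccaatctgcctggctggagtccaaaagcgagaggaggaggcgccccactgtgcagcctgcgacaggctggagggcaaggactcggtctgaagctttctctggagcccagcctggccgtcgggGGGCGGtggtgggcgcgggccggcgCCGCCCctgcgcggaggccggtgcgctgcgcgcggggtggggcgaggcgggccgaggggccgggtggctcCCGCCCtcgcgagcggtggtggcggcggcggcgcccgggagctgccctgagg
Adcy9: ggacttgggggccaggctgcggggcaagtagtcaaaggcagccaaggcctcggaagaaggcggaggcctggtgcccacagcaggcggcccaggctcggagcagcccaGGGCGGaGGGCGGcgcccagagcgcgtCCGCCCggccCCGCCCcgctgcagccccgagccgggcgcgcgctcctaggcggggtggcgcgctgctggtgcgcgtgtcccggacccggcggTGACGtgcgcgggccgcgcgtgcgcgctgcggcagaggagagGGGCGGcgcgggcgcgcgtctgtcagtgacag
Gnas: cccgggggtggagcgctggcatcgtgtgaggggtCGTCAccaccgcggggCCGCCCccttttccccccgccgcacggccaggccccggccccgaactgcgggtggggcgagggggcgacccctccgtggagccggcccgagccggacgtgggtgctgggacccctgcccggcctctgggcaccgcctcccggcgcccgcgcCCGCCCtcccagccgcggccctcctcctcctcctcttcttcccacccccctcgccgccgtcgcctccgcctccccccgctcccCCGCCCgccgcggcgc

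The 3 sequences are rich in G and C, at 75.0% for Adcy2, 78.3% for Adcy9 and 81.7% for Gnas, where the median over 32851 RefSeq promoters of this length was 52.7%. The other 3 Gnas windows were less so, at 61.0, 64.3 and 64.3%, and held 1, 0 and 0 GC boxes. GC boxes numbered 3 in Adcy2, 5 in Adcy9 and 3 in the printed Gnas window, and at least 1 was present in 35.7% of all promoters. The half-site was present once in Adcy9, beginning 24 bases before the start, and once in the printed Gnas window, beginning 216 bases before it. The Gnas windows at 64.3% G and C, which overlap each other, held 1 each, beginning 38 and 57 bases before their starts. The Gnas window at 61.0% held none. The half-site was absent from the Adcy2 window and present in 20.8% of all promoters. The full palindromic CRE (TGACGTCA, which contains the half-site on both strands) was in none of the members' windows and in 1.79% of all promoters. Promoters were matched for 8 of the 9 members, Adcy6 being the one without an entry. Adcy5 held 4 GC boxes at 79.0% G and C, whereas Adcy4 held no GC box or half-site at 58.0%. These matches are descriptions of letters in a window and were not related to the expression values.

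Adrb1, the receptor at the head of the pathway, was close to the limit of detection. It was counted 5, 1 and 8 times in control libraries B, C, D and 3, 21 and 7 times in miDrp1KO libraries A, E and F. In CPM (counts scaled to the TMM library size of each library) this was 0.237, 0.0729 and 0.133 in controls and 0.146, 0.515 and 0.336 in miDrp1KO. The groups overlapped, with library E the highest and control C the lowest, and the means were 0.148 ± 0.0829 (SD, n = 3) and 0.332 ± 0.185 (SD, n = 3). A two-sided exact permutation test of the means gave p = 0.2, and 3 libraries against 3 cannot go below 0.1. The gene did not pass the filter on low counts and has no edgeR value. The ratio of the summed counts, 31 in miDrp1KO to 14 in control, was 2.56 per library size (95% interval 1.32 to 5.20, covering counting error only), and it was 1.64 without library E. Adrb1 lies at chr19:56722199-56733113 on the plus strand (Entrez 11554).

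Gnas was the most abundant member. Its levels were 636, 625 and 684 CPM in controls B, C, D, and 464, 364 and 486 CPM in miDrp1KO libraries A, E and F. The control libraries lay within a narrow band, and the highest miDrp1KO library was below all of them. The means were 648 ± 31.5 CPM (SD, n = 3) and 438 ± 64.7 CPM (SD, n = 3), and the exact permutation test gave its smallest possible p of 0.1. The log2 fold change was -0.56 (95% interval -1.01 to -0.12), with an unadjusted p of 0.0179 and an adjusted p of 0.392 in edgeR. DESeq2 gave an adjusted p of 0.0562 for the same counts, the lowest over the 13 other settings. The highest was 0.877, in edgeR without control D. In edgeR the unadjusted p of Gnas was not under 0.05 without control D or without miDrp1KO E. Gnas (Entrez 14683) occupies chr2:174284320-174346744 on the plus strand, an imprinted locus from which several proteins with different first exons are made. The 19 merged exon blocks cover 11186 bases, and the counts do not separate Gs-alpha from the other products. Exons of Nespas and Gm20721 on the opposite strand share 8.8% and 13.1% of those bases. The libraries were stranded, but the strand setting of the counting is not given in the sources used here, so reads of such partners could not be told apart from reads of Gnas.

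**Figure D1:**
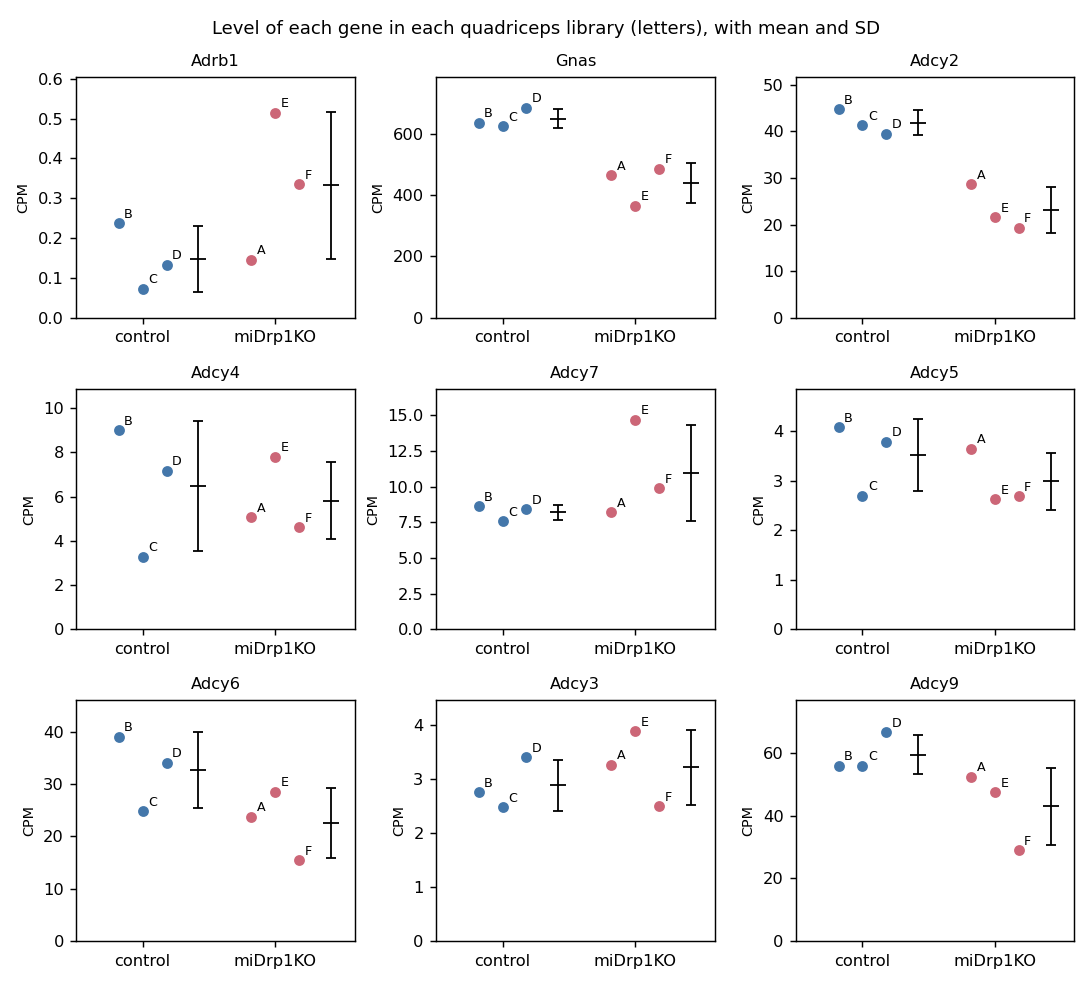
CPM in each library (letters) for the 9 genes, with control in blue, miDrp1KO in red, and the mean and SD of 3 libraries in black; every vertical axis is linear and starts at 0. Gnas, Adcy2 and Adcy9 have all 3 miDrp1KO libraries below all 3 control libraries, and the other 6 genes overlap.

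Among the cyclases stimulated by beta-gamma dimers, Adcy2 differed the most. It was at 44.8, 41.4 and 39.5 CPM in controls B, C, D and at 28.7, 21.6 and 19.3 CPM in miDrp1KO libraries A, E and F. The gap between the lowest control and the highest miDrp1KO library exceeded the range within either group. The means were 41.9 ± 2.68 CPM (SD, n = 3) and 23.2 ± 4.92 CPM (SD, n = 3; exact permutation p = 0.1). In edgeR the log2 fold change was -0.85 (95% interval -1.24 to -0.46), the unadjusted p was 5.26e-04, which ranked 18 of 16483, and the adjusted p was 0.362. Adcy2 had an unadjusted p under 0.05 in all 13 other settings, and its adjusted p, which DESeq2 did not give (unadjusted p = 7.29e-05 there), ran from 0.0628, without library A, to 0.877. The gene (Entrez 210044) lies at chr13:68620043-68999541 on the minus strand, with 25 merged exon blocks and 4211 exon bases, of which 4.5% are shared with the antisense gene Gm35161.

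Adcy7 and Adcy4, unlike Adcy2, overlapped between the groups. Adcy7, a cyclase abundant in blood and immune cells, was at 8.62, 7.58 and 8.41 CPM in controls B, C, D and at 8.21, 14.7 and 9.89 CPM in miDrp1KO libraries A, E and F. Library E stood above all others, and library A lay inside the control range. The log2 fold change was 0.42 (SE 0.224, 95% interval -0.07 to 0.91, adjusted p = 0.525 in edgeR), and it was 0.14 without library E. Adcy4, a cyclase found in endothelium among other cells, was at 9.0, 3.28 and 7.16 CPM in controls and at 5.05, 7.80 and 4.61 CPM in miDrp1KO. Its control libraries spanned the whole miDrp1KO range, and the log2 fold change was -0.16 (SE 0.349, 95% interval -0.95 to 0.63). The sign of that difference changed with 1 library: it was 0.15 without control B and 0.0022 without miDrp1KO F. Adcy7 lies at chr8:88272403-88329962 on the plus strand (Entrez 11513) and Adcy4 at chr14:55769057-55784095 on the minus strand (Entrez 104110).

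Adcy5 and Adcy6 are the calcium-inhibited cyclases and the main isoforms of heart. Adcy6 was at 39.1, 24.9 and 34.1 CPM in controls B, C, D and at 23.8, 28.6 and 15.5 CPM in miDrp1KO libraries A, E and F. Control C lay below miDrp1KO E, so the groups overlapped. The means were 32.7 ± 7.23 CPM (SD, n = 3) and 22.6 ± 6.64 CPM (SD, n = 3; exact permutation p = 0.2), and the log2 fold change was -0.53 (SE 0.241, 95% interval -1.07 to 0.0036, unadjusted p = 0.0513, adjusted p = 0.460 in edgeR). It moved between -0.75 without library E and -0.30 without library F. Adcy5 was less abundant, at 2.70 to 4.07 CPM in controls and 2.62 to 3.65 CPM in miDrp1KO. Its log2 fold change was -0.25 (SE 0.262, 95% interval -0.83 to 0.32, adjusted p = 0.758 in edgeR), and it ran from -0.42 without control C and -0.40 without miDrp1KO A to -0.17 without miDrp1KO E or F and -0.13 without control B. Adcy6 lies at chr15:98589973-98610076 on the minus strand (Entrez 11512), with 8.9% of its exon bases shared with the antisense gene Gm29331, and Adcy5 at chr16:35154877-35305738 on the plus strand (Entrez 224129).

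Adcy9 was the most abundant cyclase and Adcy3 among the least. Adcy9 was at 55.9, 55.9 and 66.7 CPM in controls B, C, D and at 52.4, 47.5 and 29.0 CPM in miDrp1KO libraries A, E and F. The groups did not overlap, but library A was close to controls B and C, and library F was far below the rest. The means were 59.5 ± 6.25 CPM (SD, n = 3) and 43.0 ± 12.3 CPM (SD, n = 3; exact permutation p = 0.1). The log2 fold change was -0.47 (95% interval -0.94 to 0.0048, unadjusted p = 0.0520, adjusted p = 0.461 in edgeR), and it shrank to -0.23 without library F. Adcy3 was at 2.75, 2.48 and 3.40 CPM in controls and at 3.26, 3.87 and 2.50 CPM in miDrp1KO. The groups overlapped, and the log2 fold change of 0.15 (SE 0.265, 95% interval -0.43 to 0.73) became -0.021 without library E. Adcy9 lies at chr16:4287529-4420498 on the minus strand (Entrez 11515). Adcy3 lies at chr12:4133103-4213525 on the plus strand (Entrez 104111) and shares 22.1% of its exon bases with Cenpo on the opposite strand.

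**Figure D2:**
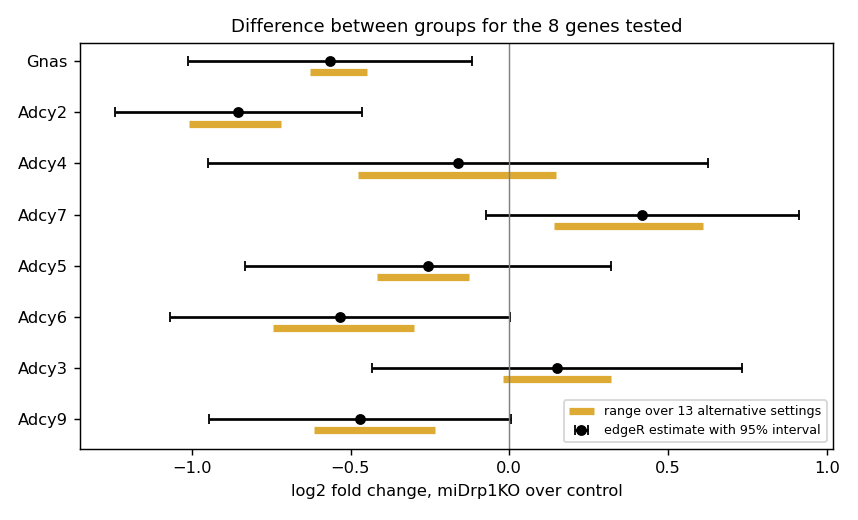
Log2 fold change, miDrp1KO over control, for the 8 genes tested, with the edgeR estimate (point), its 95% interval (black line) and the lowest and highest value over 13 other settings (yellow bar). Only the intervals of Adcy2 (-1.24 to -0.46) and Gnas (-1.01 to -0.12) lie wholly below 0, and the yellow bars of Adcy3 and Adcy4 cross 0.

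Of the 8 members tested, 6 were lower and 2 higher in miDrp1KO, and the median log2 fold change was -0.36, where the median over all genes tested was 0.017. With 1 library left out, the members' median ran from -0.50 (without control C) to -0.20 (without miDrp1KO F). For the 7 cyclases alone the median was -0.25, with 5 lower and 2 higher. The 3 genes that did not overlap were all lower, whereas over all genes tested 1700 were lower and 1265 higher without overlap.

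The cyclases were also compared with each other per length, as CPM per kb of merged exon, since a long transcript collects more reads. In control muscle Adcy9 (11.5 ± 1.20 CPM per kb, SD, n = 3) and Adcy2 (9.95 ± 0.636 CPM per kb) stood first; their libraries did not overlap but lay close together, from 10.8 to 12.8 CPM per kb for Adcy9 and from 9.38 to 10.6 CPM per kb for Adcy2. Adcy6 followed at 4.82 ± 1.07 CPM per kb. Adcy4 (1.39 ± 0.625 CPM per kb) and Adcy7 (1.22 ± 0.0817 CPM per kb) came next and overlapped. Adcy5 (0.490 ± 0.101 CPM per kb) and Adcy3 (0.460 ± 0.0758 CPM per kb) were the lowest cyclases and overlapped too. Gnas stood far above them at 57.9 ± 2.82 CPM per kb and Adrb1 far below at 0.0437 ± 0.0245 CPM per kb. In miDrp1KO muscle the means put Adcy9 at 8.27 ± 2.37, Adcy2 at 5.51 ± 1.17, Adcy6 at 3.33 ± 0.979, Adcy7 at 1.62 ± 0.501, Adcy4 at 1.25 ± 0.369, Adcy3 at 0.514 ± 0.111 and Adcy5 at 0.416 ± 0.0797 CPM per kb. Adcy7 and Adcy4, and likewise Adcy3 and Adcy5, exchanged places, each within their spread.

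Summed over the 7 cyclases, the level was 31.4, 26.9 and 31.1 CPM per kb in controls B, C, D, and 23.7, 23.3 and 15.7 CPM per kb in miDrp1KO libraries A, E and F. Every miDrp1KO library was below every control library, with means of 29.8 ± 2.53 and 20.9 ± 4.54 CPM per kb (SD, n = 3 each; exact permutation p = 0.1). Adcy9 and Adcy2, whose own levels did not overlap, made up on average 38.5% and 33.6% of the sum in controls. The sum therefore largely repeats Adcy9 and Adcy2, and the levels of the other cyclases overlapped between the groups. The composition of this sum also differed. Adcy2 made up 33.9, 36.6 and 30.2% of it in controls B, C, D and 28.7, 21.97 and 29.2% in miDrp1KO A, E and F. The share of Adcy7 was 4.08, 4.19 and 4.02% in controls and 5.14, 9.37 and 9.37% in miDrp1KO. Neither share overlapped between the groups (exact permutation p = 0.1 for each), and library A was the miDrp1KO library nearest the controls for Adcy7. The level of Adcy7 per length in library A (1.22 CPM per kb) was inside the control range (1.13 to 1.28 CPM per kb), so its share there was above the controls only through the lower sum. The share of Adcy3 was small and did not overlap either (1.54 ± 0.183% and 2.47 ± 0.242%, SD, n = 3 each), although its own level per length overlapped and only the sum beneath it was lower in every miDrp1KO library. Adcy9 kept a similar share, at 38.5 ± 3.74% in controls and 39.1 ± 3.42% in miDrp1KO, and so did Adcy6, at 16.1 ± 2.37% and 15.8 ± 1.98%.

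**Figure D3:**
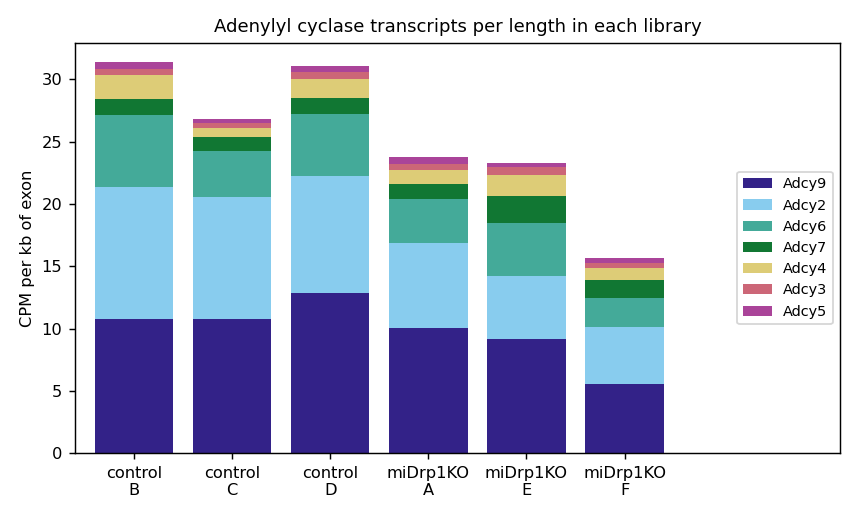
CPM per kb of merged exon for the 7 cyclases, stacked for each library, with control libraries on the left and miDrp1KO libraries on the right; the vertical axis is linear and starts at 0. The stacks of miDrp1KO A, E and F (23.7, 23.3 and 15.7) are all shorter than those of controls B, C and D (31.4, 26.9 and 31.1), and Adcy9, Adcy2 and Adcy6 fill most of each.

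The deleted gene and the cell content of the muscle stand beside these differences. Dnm1l itself was at 156, 114 and 140 CPM in controls B, C, D and at 70.6, 81.3 and 66.2 CPM in miDrp1KO libraries A, E and F, without overlap, in the direction of the labels (log2 fold change -0.91, SE 0.182). In edgeR its adjusted p was 0.362, the same value as for Adcy2; in DESeq2 it was 0.00228. Total counts were 13989588 to 62042255 in control and 20028624 to 28829756 in miDrp1KO libraries, and ribosomal RNA genes took 3.36 to 15.6% of them in controls and 1.48 to 24.4% in miDrp1KO. Spearman correlations between libraries ran from 0.960 to 0.985.

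Markers of skeletal muscle fibres were present at a high level in all 6 libraries, as the tissue label requires. Their summed level was 228360 to 287610 CPM in control and 105650 to 213670 CPM in miDrp1KO libraries, without overlap. Ttn was the largest part of the sum in every library, and its own groups overlapped. So did those of Des, Myh1, Myh2, Mb and Ckm. Those of Myh4, Tnni2, Tnnt3 and Acta1 did not, where 18% of all genes tested did not overlap. Of the 10 markers, 9 were lower (median log2 fold change -0.55). Of these, 1 was at an unadjusted p under 0.05 (Myh4, adjusted p = 0.392 in edgeR), where 10.9% of all genes tested reached it. Myh4, the fast myosin heavy chain of type IIb fibres, was at 49885, 58256 and 62914 CPM in controls B, C, D and at 40363, 17190 and 12241 CPM in miDrp1KO A, E and F. Library A lay nearest the controls for Myh4, Adcy2, Adcy9 and the share of Adcy7, whereas library F did for Gnas and the share of Adcy2. Markers of adipocytes summed to 428 to 691 CPM in control and 284 to 408 CPM in miDrp1KO libraries, also without overlap, with 7 of 7 lower and 3 of them at an unadjusted p under 0.05, where 10.9% of all genes tested reached it. Of the macrophage and leukocyte markers, 6 of 8 were higher, 3 of them at an unadjusted p under 0.05 (again beside 10.9%), and their sums were 120 to 221 and 198 to 204 CPM. Slow fibre markers ran from 52.8 to 441 CPM in controls and from 81.2 to 723 CPM in miDrp1KO, with B, E and F the high libraries, and 7 of 7 were higher (median log2 fold change 1.47), none at an unadjusted p under 0.05. Sums for endothelial (174 to 310 and 184 to 281 CPM), smooth muscle (139 to 214 and 144 to 219 CPM), fibroblast (1170 to 1659 and 1316 to 2054 CPM), Schwann cell (30.3 to 37.9 and 32.0 to 56.1 CPM) and red blood cell markers (47.2 to 272 and 73.1 to 231 CPM) overlapped, and no marker was at 0 in all libraries. All 6 fibroblast markers were higher (median 0.23), none at an unadjusted p under 0.05. The part of cell content in the differences of Adcy2, Adcy9, Gnas and Adcy7 was not tested. In whole muscle, fewer cells of a type and less RNA per cell cannot be told apart.

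**Figure D4:**
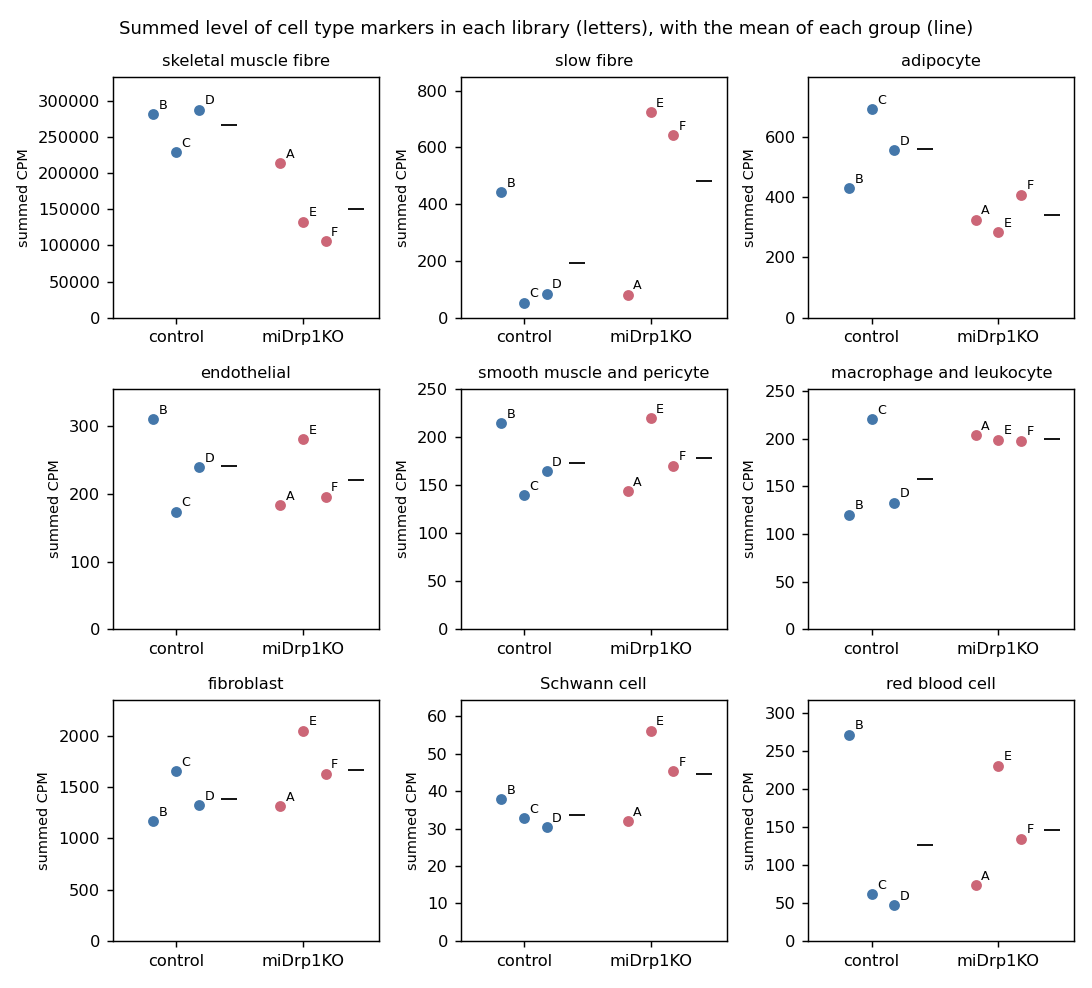
Summed CPM of each list of cell type markers in each library (letters), with control in blue, miDrp1KO in red and the mean of 3 libraries as a short line; every vertical axis is linear and starts at 0. The skeletal muscle fibre and adipocyte sums of the miDrp1KO libraries lie below those of the controls (105650 to 213670 against 228360 to 287610, and 284 to 408 against 428 to 691), and the other lists overlap.

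The rest of the receptor and G protein layer showed no common direction. Counts at an unadjusted p under 0.05 in this and the following lists stand beside 10.9% of all genes tested, and counts without overlap beside 18%. Of the other adrenoceptors, 8 were tested, with 3 below control, 5 above and a median of 0.10 on the log2 scale, and 1 was lower at an unadjusted p under 0.05. Other Gs-coupled receptors and their partners were split evenly (16 tested, 8 lower and 8 higher, median 0.0083), and Adgrg6, an adhesion receptor known for its role in myelination, was at 0.55 (SE 0.242, adjusted p = 0.449), and at 0.36 without library E. Receptor kinases and arrestins, which switch activated receptors off, were 5 lower and 2 higher of 7 (median -0.13), with none at an unadjusted p under 0.05; Grk2, the beta-adrenergic receptor kinase, was at -0.24 (SE 0.159), and at -0.14 without library E. Among the other alpha subunits and their chaperones 7 of 14 were lower and the median was -0.0056. At an unadjusted p under 0.05 there were 2, both lower (Gnai1 and Gna12, the latter at -0.52 with SE 0.164 and named with its value in view), and without overlap 3 were lower and 1 higher. Gnai1, which inhibits cyclases, was at 5.82, 8.16 and 6.78 CPM in controls B, C, D and at 4.18, 4.04 and 3.55 CPM in miDrp1KO A, E and F, without overlap. Its log2 fold change was -0.81 (SE 0.211, adjusted p = 0.362 in edgeR). Gnal, the olfactory relative of Gs-alpha, was at 2.33 to 2.55 CPM in controls and 2.30 to 2.53 CPM in miDrp1KO; it was picked out after its value was seen. Beta and gamma subunits were 3 lower and 9 higher of 12 (median 0.087), with Gng11 at 0.54 (SE 0.272, adjusted p = 0.499).

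The remaining 3 cyclase genes in the files were weakly expressed, and none reached an unadjusted p of 0.05. Adcy1, a calmodulin-stimulated cyclase, was at 1.55 ± 0.688 CPM in controls and 2.34 ± 0.511 CPM in miDrp1KO (SD, n = 3 each), with a log2 fold change of 0.67 (SE 0.395, adjusted p = 0.567 in edgeR) that was 0.31 without control D. Their median was 0.67, with 1 lower and 2 higher.

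Downstream of cAMP, the PKA list held 5 lower and 4 higher of 9 tested, with a median log2 fold change of -0.19. None passed the adjusted threshold. At an unadjusted p under 0.05, 3 of the 9 were lower, against 10.9% of all genes tested in either direction, and 4 of the 9 were lower without overlap, against 18%. Prkar2b, a type II regulatory subunit abundant in fat and brain, was at 8.85, 14.6 and 13.3 CPM in controls B, C, D and at 7.19, 3.65 and 6.57 CPM in miDrp1KO A, E and F. Its log2 fold change was -1.09 (SE 0.280, adjusted p = 0.362 in edgeR). The adipocyte marker sum was 428, 691 and 555 CPM in controls B, C, D and 324, 284 and 408 CPM in miDrp1KO A, E and F, and its part in the Prkar2b difference was not tested. Prkar2a, the type II regulatory subunit found in most tissues, was at 215, 239 and 229 CPM in controls and at 203, 147 and 128 CPM in miDrp1KO (log2 fold change -0.51, SE 0.206, adjusted p = 0.416). Prkaca, the main catalytic subunit, was at 30.0, 30.8 and 31.2 CPM in controls and at 25.7, 19.4 and 25.9 CPM in miDrp1KO (log2 fold change -0.38, SE 0.162, adjusted p = 0.436). Prkacb, the other catalytic subunit, was at 51.2, 51.6 and 52.0 CPM in controls and at 49.9, 42.9 and 39.2 CPM in miDrp1KO. Prkar2a, Prkaca and Prkacb are named although the naming rule did not pick them, with their values in view. The inhibitor Pkia was the most abundant of the list, at 1082 ± 96.7 CPM in controls and 1164 ± 121 CPM in miDrp1KO (SD, n = 3 each).

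A-kinase anchoring proteins, which hold PKA at defined places in the cell, were 11 lower and 1 higher of 12 tested (median -0.28). None reached an unadjusted p of 0.05, and 1 did not overlap, Akap6, the anchor of the nuclear envelope and sarcoplasmic reticulum of muscle. It was at 175, 125 and 149 CPM in controls B, C, D and at 124, 121 and 75.3 CPM in miDrp1KO A, E and F (log2 fold change -0.49, SE 0.225, adjusted p = 0.464 in edgeR; -0.27 without library F). The cAMP phosphodiesterases, which end the signal, were 11 lower and 5 higher of 16 (median -0.10), 2 of them lower at an unadjusted p under 0.05. Pde3b, the phosphodiesterase through which insulin lowers cAMP in fat, was at 14.6, 22.5 and 19.97 CPM in controls and at 15.4, 8.58 and 9.31 CPM in miDrp1KO. Library A exceeded control B, so its groups overlapped (log2 fold change -0.78, SE 0.248, adjusted p = 0.382). The other cAMP effectors were 6 lower and 3 higher of 9 (median -0.086), with 1 higher at an unadjusted p under 0.05.

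At the level of transcription and of the Erk cascade the lists again held values on both sides of 0. CREB factors and coactivators were 5 lower and 3 higher of 8 (median -0.041), none at an unadjusted p under 0.05, with the coactivator Crtc3 at -0.38 (SE 0.191), or -0.21 without library F. Transcripts that cAMP is known to induce were 8 lower and 4 higher of 12 (median -0.064), and the 2 at an unadjusted p under 0.05, Junb and Rgs2, were both higher and did not overlap. Rgs2, a regulator of G protein signalling named here with its value in view, was at 0.52 (SE 0.201, adjusted p = 0.409 in edgeR). Junb, an AP-1 subunit of the immediate-early class, was at 7.24, 6.63 and 7.58 CPM in controls B, C, D and at 24.0, 12.9 and 16.7 CPM in miDrp1KO A, E and F. Its log2 fold change was 1.31 (SE 0.226, unadjusted p = 1.12e-04, adjusted p = 0.308 in edgeR). Over the other settings that give one, its adjusted p ran from 0.00943, in edgeR with no filter on low counts, to 0.877. Nr4a1, which encodes Nur77 and was singled out here for the study's interest in it, was at 94.0, 108 and 80.7 CPM in controls and at 103, 48.5 and 39.4 CPM in miDrp1KO, with library A inside the control range (log2 fold change -0.57, SE 0.347, adjusted p = 0.584). Genes of the Erk cascade were 9 lower and 6 higher of 15 (median -0.13), with 2 lower at an unadjusted p under 0.05. Genes of catecholamine synthesis, uptake and breakdown were 2 lower and 6 higher of 8 (median 0.20), and Maob, a monoamine oxidase, was at 25.0 ± 1.24 CPM in controls and 18.7 ± 1.05 CPM in miDrp1KO (SD, n = 3 each; log2 fold change -0.42, SE 0.146, adjusted p = 0.392 in edgeR).

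**Figure D5:**
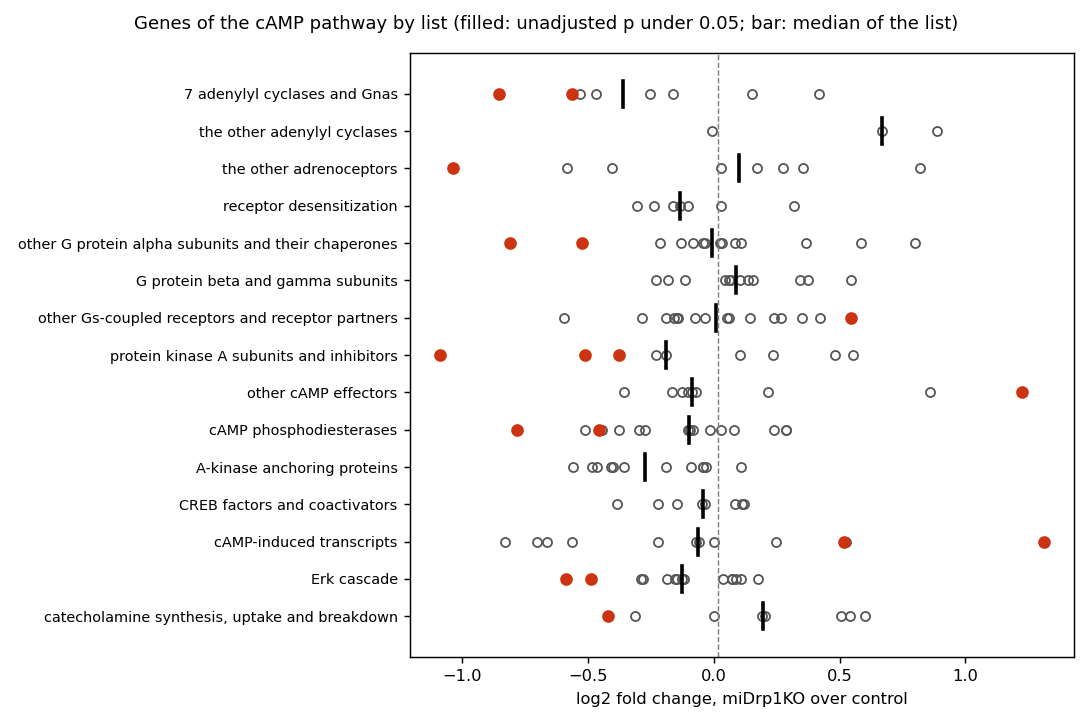
Log2 fold change, miDrp1KO over control, of each tested gene in the lists of the cAMP pathway, with 1 circle per gene (filled where the unadjusted p was under 0.05), a black bar at the median of the list and a dashed line at the median of all genes tested (0.017). The 7 adenylyl cyclases and Gnas have a median of -0.36 and the A-kinase anchoring proteins one of -0.28, and no gene shown passed the adjusted threshold in edgeR with the filter on low counts.

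Adcy2, the member with the lowest p, was set beside all other tested genes with a mean of at least 5 CPM (9486 genes) by the Pearson correlation of log2 CPM over the 6 libraries. The 3 genes most like it were Mcmbp (r = 0.999), which binds the replicative helicase, Polg (r = 0.996), the catalytic subunit of the mitochondrial DNA polymerase, and Rhoq (r = 0.996), a small GTPase of insulin signalling. Each was lower in all miDrp1KO libraries, with log2 fold changes of -0.34 for Mcmbp (SE 0.150), -0.50 for Polg (SE 0.160) and -0.34 for Rhoq (SE 0.163). The 6 points of each correlation share their libraries and fall into the 2 groups, and the correlation was used only to pick these genes.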

How the data were processed

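RNA-seq counts of 6 quadriceps libraries (3 control, 3 miDrp1KO) were analysed. Total RNA libraries (TruSeq Stranded, RiboZero Gold) went through FastQC; Rsubread did the alignment (GRCm38) and the counting, and the authors deposited raw counts per Entrez gene, unnormalized, 1 file per library; their processing notes also name DESeq2 1.30.0. The libraries were sequenced in pools, and the pool of each library is not given in the sources used here. Groups were taken from the genotype label.

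The main test was edgeR 4.0.16 under R 4.3.3, with TMM scaling, filterByExpr and a robust quasi-likelihood fit. Adjusted p-values follow Benjamini and Hochberg over 16483 genes, with a threshold of 0.05. The biological coefficient of variation was 0.252, and total counts of 13989588 to 62042255 per library left Adrb1 with at most 21 counts. CPM used TMM library sizes; log2 CPM used a prior count of 2. Single values were compared by two-sided exact permutation tests. Exon lengths and overlaps came from the GENCODE annotation of GRCm38, promoters from RefSeq.

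The members and gene lists were chosen with earlier results of these data known. The named genes are the members, Dnm1l, the gene with the lowest p in each list (mean of at least 1 CPM) and the 3 genes most like the leading member; some genes this rule picks are not reported here. Alternatives were DESeq2 1.42.0, voom (limma 3.58.1), scaling by RLE or by upper quartile, no filter, at least 10 counts in every library, leaving out ribosomal RNA genes, an unadjusted threshold, and leaving out each library in turn.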

Additional observations from a re-analysis of the deposited data

How the results depend on the processing

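No member passed an adjusted p of 0.05 under any alternative that gives one, and 2 did (Adcy2 and Gnas) when the threshold was put on the unadjusted p. DESeq2 gave an adjusted p for only 2 members, Adcy9 (0.227) and Gnas (0.0562), since its independent filter left only 2860 genes with one; Adcy2, at an unadjusted p of 7.29e-05 in DESeq2, was among those without, so no DESeq2 call could be read for it. Over all genes tested, 2 were called; DESeq2 called 121, the fit with no filter on low counts 8, an unadjusted threshold 1796, and the fits that left out 1 library from 1 (without miDrp1KO E or F) to 7 (without miDrp1KO A). The cause of these differences was not tested. Signs turned for members near 0: Adcy4 was at 0.146 without control replicate B and at 0.00215 without miDrp1KO replicate F, and Adcy3 at -0.0212 without miDrp1KO replicate E. Over the fits that left out 1 library Adcy4 ran from -0.476 to 0.146 and Adcy3 from -0.0212 to 0.32. Members at an unadjusted p under 0.05 numbered 1 to 4 over the settings, Adcy2 among them each time, while over all genes the count at that threshold ran from 951 of 17750 (without control D, 1 member) to 3115 of 17845 (without miDrp1KO A, 4 members). Junb had an adjusted p of 0.00943 with no filter on low counts. Upper quartile normalization moved the median of all genes to 0.106 and leaving out the filter moved it to 0.113, and the 6 lower and 2 higher members kept their sides under both. No paired analysis was possible because the labels give no pairing between control and miDrp1KO libraries. With 3 libraries a group, no exact permutation p can fall below 0.1, and Adrb1 was too rarely counted for a difference to be read.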
